A study of Mus musculus with 6 samples.

Results

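The 40 genes described here encode the CD3 part of the T cell receptor and the proteins closest to it in signalling. They were chosen by symbol, as 25 activating parts, 12 negative regulators and 3 genes with both roles, and all 40 were found among the 49585 genes of the deposited table. Levels were measured by RNA sequencing of regulatory T cells (Tregs), the Foxp3-dependent T cells that restrain immune responses, in 3 libraries labelled Bach2-cKO and 3 libraries labelled WT. BACH2 is a transcriptional repressor that limits the effector programme of lymphocytes. The study compared Tregs with and without it in relation to interleukin-2 receptor signalling and follicular regulatory T cells.

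Every library came from the spleens of C57BL/6 mice aged 7 weeks. Cells were sorted as CD4+ B220- YFP+, and the design text adds CD25+. Both groups were then stimulated for 24 h with plate-bound antibodies to CD3 and CD28, so every value below is a level after receptor stimulation and no unstimulated sample is used here. The labels do not say which promoter drives the deletion or the YFP, nor in which other cells Bach2 is deleted. They also do not say whether the 3 libraries of a group came from separate mice, so p-values measure the spread between these libraries, which may be technical. Values are FPKM, that is, fragments counted on a gene, divided by its length in kilobases and by the total of its library.

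The T cell receptor has no enzyme of its own. When it binds its ligand, the kinase LCK phosphorylates motifs in the CD3 chains, ZAP70 docks there and phosphorylates the scaffold LAT, and PLCG1 at that scaffold cuts a membrane lipid into a calcium-releasing messenger and diacylglycerol. Calcium switches on NFAT, while diacylglycerol recruits RASGRP1 for the Ras pathway and PRKCQ for the activation of NF-kappaB through BCL10 and MALT1. Phosphatases, ubiquitin ligases, diacylglycerol kinases and inhibitory receptors such as CD5 damp these steps, and Tregs depend on receptor signals for their development and function.

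Read totals recovered from the table were 27703735, 31976067 and 27777210 in the Bach2-cKO libraries and 43884431, 30893921 and 27697735 in the WT libraries. The member with the fewest reads in any library was Trat1, with 491, so low counts limited no member. Bach2 itself was at 88.9, 105 and 121 FPKM in the Bach2-cKO libraries, against 112, 111 and 99.4 FPKM in the WT libraries, an overlap at the level of the whole gene. These gene-level values cannot check the genotype, and Bach2-cKO below is the name the labels give. The Treg factor Foxp3 was high in all libraries, at 112, 104 and 153 FPKM in Bach2-cKO, against 127, 108 and 113 FPKM in WT.

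Beside the Treg genes, the libraries held RNA of other cell types, and its amount differed between the groups. The summed level of 10 B cell markers was 3699, 4668 and 3952 FPKM in the Bach2-cKO libraries, against 2389, 3150 and 2350 FPKM in the WT libraries, although the sort was B220-. Of these 10 markers 5 rose and the other 5 did not pass the test described below, and those that rose include the immunoglobulin heavy chain gene Ighm and the B cell factor Pax5. Both CD8 T cell markers rose, and their sums were 99.3, 80.0 and 53.8 FPKM in Bach2-cKO, against 41.2, 44.2 and 40.2 FPKM in WT. Of 5 plasma cell markers 4 were tested and 3 rose, with sums of 168.1 to 246 FPKM in Bach2-cKO, against 89.7 to 103 FPKM in WT.

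A list of 9 T cell genes that are not members summed to 1812, 1646 and 1843 FPKM in the Bach2-cKO libraries, against 2236, 2266 and 2403 FPKM in the WT libraries. Of these, 4 fell, Trbc1, Trbc2, Bcl11b and Tespa1, and the other 5 did not pass the test. The groups overlapped in neither the T cell nor the B cell sum, with the T cell sum lower and the B cell sum higher in every Bach2-cKO library. Of 8 Treg genes 2 rose, the interleukin-2 receptor gene Il2ra and the integrin gene Itgae, and 1 fell, Ikzf4. Natural killer and myeloid markers were low: the 4 natural killer genes summed to 11.2 to 17.8 FPKM in Bach2-cKO and 6.53 to 9.45 FPKM in WT, the 8 myeloid genes to 28.8 to 77.6 FPKM in Bach2-cKO and 22.9 to 32.6 FPKM in WT. None of the 5 of these genes that were tested passed the test, and 1, Eomes, had an unadjusted p under 0.05. The part of this mixture in the values of the members was not tested directly; fits that take it into account are given beside the results.

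**Figure D1:**
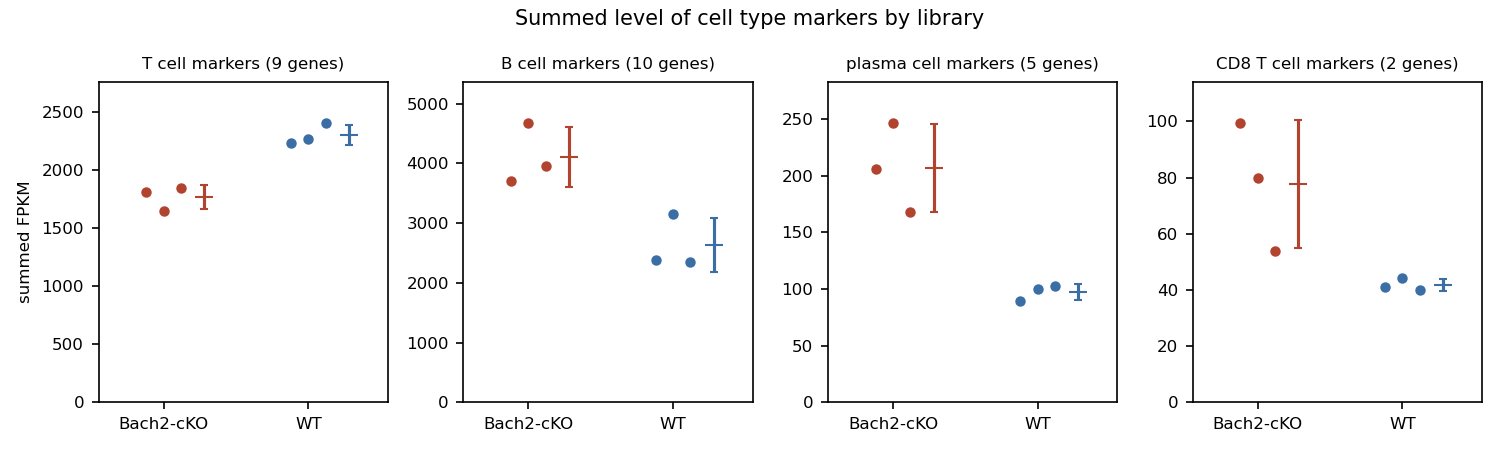
Summed FPKM of 4 lists of cell type markers in each library (points), with mean ± SD (dash and bar, n = 3). Every Bach2-cKO library lies below every WT library for the 9 T cell markers, and above every WT library for the 10 B cell, 5 plasma cell and 2 CD8 T cell markers.

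In the FPKM as deposited, most of the 40 members that moved were lower in the Bach2-cKO libraries, on both the activating and the inhibitory side. A small group that includes Themis, Malt1 and Nfatc1 was higher. The 58 tested genes of a further pathway list, described below, had 10 lower and 10 higher. Each gene was tested with limma on log2(FPKM + 1) across 13766 genes, with Benjamini-Hochberg adjustment and a threshold of 0.05. Of the 40 members 12 fell, 4 rose and 24 did not pass the test, where 15.3% of all tested genes passed it, 8.31% lower and 7.02% higher. Most members are abundant, and among the 8317 genes with a mean of at least 10 FPKM the shares were 9.01% lower and 8.42% higher. The median log2 fold change (Bach2-cKO minus WT) was -0.21 over the members and -0.017 over all genes. The groups did not overlap for 26 members, 20 of them lower and 6 higher in Bach2-cKO, against 35.6% of all tested genes, 20.1% lower and 15.5% higher.

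Among the 25 activating parts 6 fell, 3 rose and 16 did not pass the test, with a median log2 fold change of -0.19. Among the 12 negative regulators 5 fell, 1 rose and 6 did not pass the test, with a median of -0.20. Of the 3 genes with both roles 1 fell. The summed level of the activating parts was 3107 ± 168 FPKM in Bach2-cKO, against 3584 ± 173 FPKM in WT, and that of the negative regulators was 1615 ± 55.1 FPKM in Bach2-cKO, against 1940 ± 16.2 FPKM in WT (SD, n = 3 each). The 2 classes thus had medians of nearly the same size, and the difference between the classes was not tested.

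These counts depend on single libraries and on how the libraries are scaled. Without Bach2-cKO replicate 2 the number of members that fell was 6, of which 3 were activating parts and 3 negative regulators, and without WT replicate 1 it was 7, with 4 activating parts and 3 negative regulators; 4.27% and 4.07% of all tested genes fell in these fits. Without Bach2-cKO replicate 3, the replicate with the lowest CD8 marker sum of its group, it was 16, with 9.99% of all tested genes. The number that rose was 4 in each of the 6 fits that left out a library, beside 3.57% to 8.89% of all tested genes. When the libraries were centred on the 9 T cell markers, 4 members fell and 13 rose, where 3.42% of all tested genes fell and 43.0% rose, and the median of all genes moved to 0.29. In that fit 18 members changed sign, of which Cd3g and Fyn had passed the test before it. With a score of B cell markers as a covariate, 0 members passed the test with limma in either direction, while 4 were lower and 7 higher at an unadjusted p under 0.05. In that fit 31 of all tested genes were lower and 28 higher after adjustment, and 1244 lower and 982 higher before it.

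**Figure D2:**
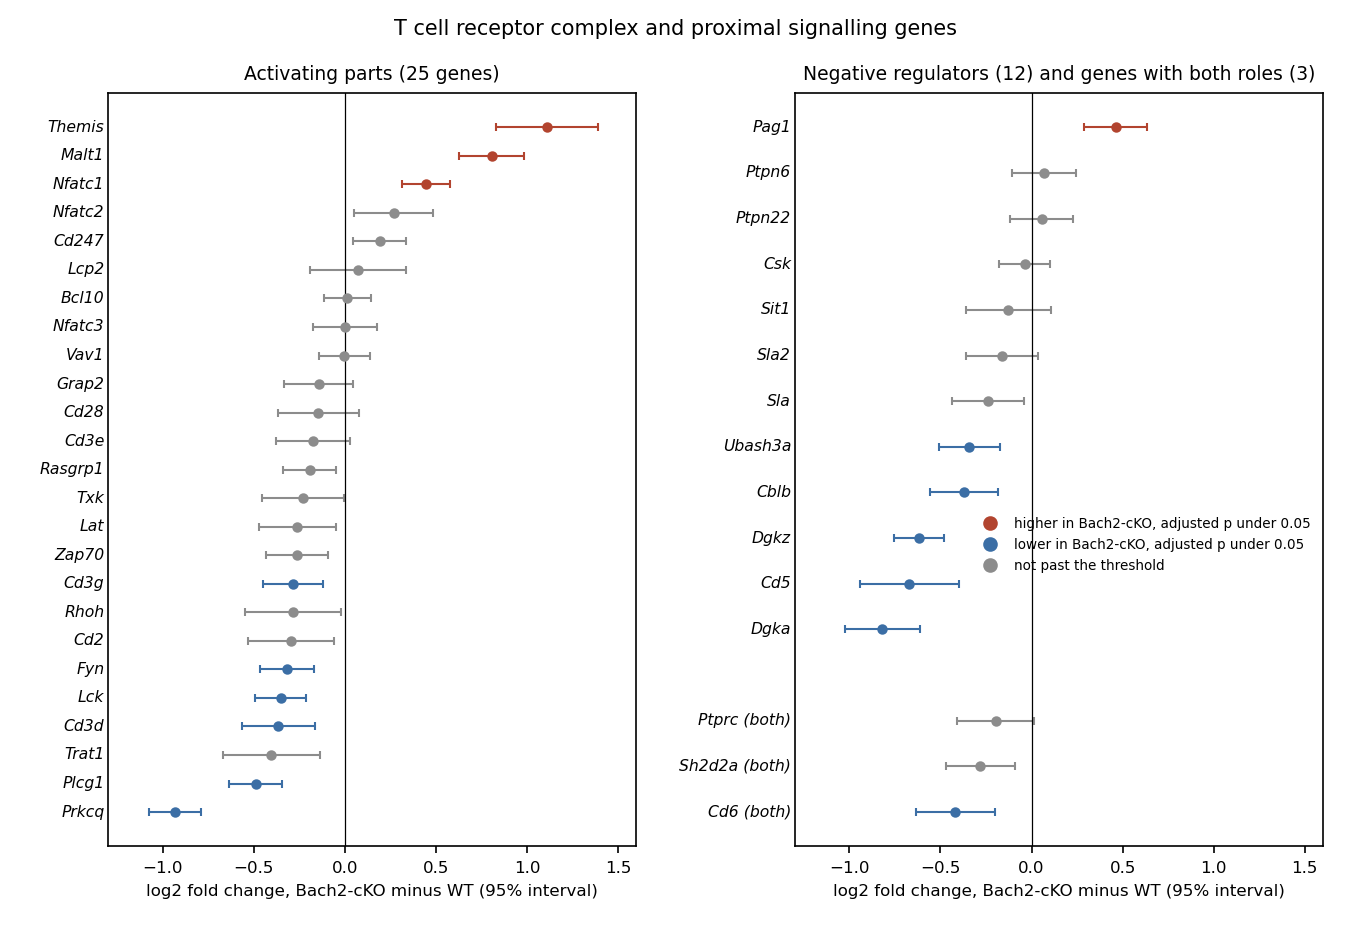
Log2 fold change (Bach2-cKO minus WT, x axis) with its 95% confidence interval from limma for the 25 activating parts (left) and for the 12 negative regulators and 3 genes with both roles (right), coloured by the call. Blue points mark the 12 members that fell and red points the 4 that rose in the FPKM as deposited; Cd3g and Fyn turn to just above 0 after T cell marker centring.

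The receptor chains did not move as a block. The genes of the CD3 delta and gamma chains fell, the epsilon chain did not pass the test, and the zeta chain gene Cd247 lay above WT in every library without passing it. In bulk samples, fewer cells of a type and less RNA per cell cannot be told apart, which holds for every value here. Cd3d was at 276, 254 and 282 FPKM in Bach2-cKO, against 312, 354 and 382 FPKM in WT. Its log2 fold change was -0.37 with a standard error (SE) of 0.086 (limma, adjusted p = 0.0292). Every Bach2-cKO library lay below every WT library.

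Cd3g was at 164, 162 and 183 FPKM in Bach2-cKO, against 194, 211 and 215 FPKM in WT, again with no overlap. It fell by 0.28 on the log2 scale (SE 0.071, adjusted p = 0.0346, limma), but was at 0.06 after centring on T cell markers, below the all-gene median of 0.29 in that fit. Cd3e was at 153, 151 and 181 FPKM in Bach2-cKO, against 183, 170.1 and 194 FPKM in WT (log2 fold change -0.18, adjusted p = 0.221, limma). The third Bach2-cKO library lay within the range of WT. Both calls are weak: Cd3d lost its call in 4 of the 6 fits that left out a library, all but those without Bach2-cKO replicate 3 or WT replicate 1, and Cd3g kept it only without Bach2-cKO replicate 3.

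Cd247, whose product carries most of the signalling motifs of the receptor, was at 105, 101 and 108 FPKM in Bach2-cKO, against 92.3, 86.6 and 96.7 FPKM in WT. The groups did not overlap, and the log2 fold change was 0.19 (95% confidence interval 0.047 to 0.34, adjusted p = 0.0787, limma). The constant-region genes of the receptor itself, which are not members, were lower: Trbc1 averaged 245 ± 19.1 FPKM in Bach2-cKO and 406 ± 14.8 FPKM in WT, and Trbc2 375 ± 21.96 FPKM in Bach2-cKO and 596 ± 30.2 FPKM in WT (SD, n = 3 each). The alpha chain gene Trac averaged 427 ± 38.1 FPKM in Bach2-cKO and 505 ± 24.4 FPKM in WT and did not pass the test (adjusted p = 0.0849, limma). Within each library Cd247 was therefore more abundant relative to Cd3e, with ratios of FPKM of 0.687, 0.673 and 0.598 in Bach2-cKO, against 0.505, 0.509 and 0.497 in WT.

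Cd3g, Cd3d and Cd3e lie side by side on chromosome 9 of GRCm38, with Cd3g at chr9:44969572-44980431 on the minus strand, Cd3d at chr9:44981786-44987339 on the plus strand and Cd3e at chr9:44998740-45009627 on the minus strand. Cd3g and Cd3d point away from each other, 1355 bases apart at their annotated starts, and 11401 bases separate the ends of Cd3d and Cd3e. Counting that ignores strand could mix Cd3e with the antisense gene Gm48719, which was at 8.63 FPKM in Bach2-cKO and 14.5 FPKM in WT. The RefSeq promoters of the pair that fell (250 bases before the start to 50 after it, GRCm38.p6, printed on the strand of the gene) are shown because these neighbours moved together, and that of Prkcq because it had the largest fall of the 40 genes. The windows are chr9:44980382-44980681 on the minus strand for Cd3g, chr9:44981536-44981835 on the plus strand for Cd3d and chr2:11172132-11172431 on the plus strand for Prkcq. Capitals mark TGGAAA, the core of the NFAT motif, here on the opposite strand as TTTCCA.
Cd3g: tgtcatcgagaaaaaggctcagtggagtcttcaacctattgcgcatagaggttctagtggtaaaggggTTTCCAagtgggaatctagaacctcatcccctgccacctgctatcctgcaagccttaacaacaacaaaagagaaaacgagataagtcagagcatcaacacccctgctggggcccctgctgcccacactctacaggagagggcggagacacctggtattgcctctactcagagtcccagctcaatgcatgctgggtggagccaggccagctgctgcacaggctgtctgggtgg
Cd3d: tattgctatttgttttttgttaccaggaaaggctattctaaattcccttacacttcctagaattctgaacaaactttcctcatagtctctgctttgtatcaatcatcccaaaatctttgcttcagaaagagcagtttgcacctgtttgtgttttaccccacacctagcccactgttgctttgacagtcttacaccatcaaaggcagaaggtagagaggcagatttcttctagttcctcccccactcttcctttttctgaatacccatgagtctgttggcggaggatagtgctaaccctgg
Prkcq: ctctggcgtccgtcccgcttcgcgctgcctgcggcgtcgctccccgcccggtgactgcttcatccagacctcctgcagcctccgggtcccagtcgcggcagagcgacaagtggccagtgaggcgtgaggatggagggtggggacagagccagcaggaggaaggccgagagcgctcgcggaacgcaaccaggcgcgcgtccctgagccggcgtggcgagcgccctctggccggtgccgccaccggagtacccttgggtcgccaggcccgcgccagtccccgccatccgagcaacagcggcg
The windows differ in base composition: G and C made up 54.0% of that of Cd3g, 42.3% of that of Cd3d and 73.0% of that of Prkcq, with 4, 1 and 37 CG dinucleotides.

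RefSeq promoters were matched for 32 of the 40 members, in 46 windows. These hold 11 of the 12 members that fell but only 1 of the 4 that rose, Themis. Malt1, Nfatc1 and Pag1 had no matched promoter and were not searched. TGANTCA, the core that BACH2 shares with AP-1 factors, was searched on both strands and was in 0 of the 46 windows, where 7.81% of 32851 promoters hold it. The longer Maf recognition element, which contains that core, was in 0 of the 46 as well, with 0.423% of all promoters. TGGAAA was in 9 windows of 7 members, Cd3e, Cd3g, Cd5, Dgka, Nfatc2, Ptpn6 and Zap70, where 21.4% of all promoters hold it. These matches describe letters in a short window and not binding.

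The costimulatory receptors and the kinases came next in the chain of events. Cd2, an adhesion receptor that sits at the contact with other cells, was the second most abundant member, at 398, 399 and 490.3 FPKM in Bach2-cKO, against 519, 489 and 568 FPKM in WT. The groups overlapped through the third Bach2-cKO library, and Cd2 did not pass the test (log2 fold change -0.29, adjusted p = 0.0912, limma). Cd28, the receptor stimulated beside CD3 in these cultures, was at 155, 151 and 169 FPKM in Bach2-cKO, against 184, 152 and 193 FPKM in WT, also with overlap (adjusted p = 0.353, limma).

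All 5 activating kinases were lower in every Bach2-cKO library than in any WT library, as were 20.1% of all tested genes. Of the 5 kinases 3 passed the test, where 8.31% of all tested genes were called lower. Fyn, Zap70 and Txk turned to above 0 after T cell marker centring, but stayed below the all-gene median of 0.29 in that fit. The largest fall was that of Prkcq, the kinase of the theta class of protein kinase C that links the receptor and CD28 to NF-kappaB. It was at 37.0, 33.2 and 34.4 FPKM in Bach2-cKO, against 67.6, 66.4 and 68.1 FPKM in WT. The log2 fold change was -0.93 (SE 0.062, adjusted p = 0.00027, limma), and the level in Bach2-cKO was lower by 48.2%. Prkcq was called in each of the 6 fits that left out a library and stood at a log2 fold change of -0.59 after T cell marker centring, where it was still called (adjusted p = 0.00123, limma).

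Lck, the kinase that starts the cascade, was at 304, 283 and 301 FPKM in Bach2-cKO, against 368, 372 and 394 FPKM in WT (log2 fold change -0.35, SE 0.061, adjusted p = 0.00904, limma). Fyn, a second Src-family kinase, was at 159, 152 and 169.6 FPKM in Bach2-cKO, against 202, 192 and 205 FPKM in WT (log2 fold change -0.32, adjusted p = 0.0151, limma), and turned to 0.02 after T cell marker centring. Neither gene overlapped between the groups. After that centring the log2 fold change of Lck was -0.0092 and its call was lost, and Fyn lost its call without Bach2-cKO replicate 1, Bach2-cKO replicate 2 or WT replicate 1.

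Zap70, which binds the phosphorylated CD3 chains, was just above the threshold. It was at 206, 182 and 197 FPKM in Bach2-cKO, against 228, 222 and 252 FPKM in WT, with no overlap (log2 fold change -0.26, adjusted p = 0.0507, limma). Txk, a Tec-family kinase, had the lowest mean of all members in Bach2-cKO, with 11.5, 9.65 and 11.6 FPKM, against 13.02, 12.3 and 13.6 FPKM in WT (adjusted p = 0.158, limma).

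The scaffold around LAT was uneven, with the enzyme PLCG1 lower, the T-lineage adaptor THEMIS higher and the other members not past the threshold. Plcg1, which makes diacylglycerol and the calcium messenger, was at 86.6, 84.1 and 93.8 FPKM in Bach2-cKO, against 128, 121 and 123 FPKM in WT. Its log2 fold change was -0.49 (SE 0.062, adjusted p = 0.00273, limma), and it was called without any one of the libraries but not after T cell marker centring (-0.15, adjusted p = 0.143, limma). No Bach2-cKO library reached the WT range.

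Themis, an adaptor known for its role in thymocyte selection, showed the largest change of the 40 genes. It was at 29.8, 24.0 and 21.6 FPKM in Bach2-cKO, against 11.7, 10.7 and 10.7 FPKM in WT. The log2 fold change was 1.11 (SE 0.12, adjusted p = 0.00146, limma), and the level was 128% higher than in WT. All Bach2-cKO libraries lay above all WT libraries, with a wider spread (coefficient of variation 16.8% in Bach2-cKO and 5.37% in WT). The order of the 3 Bach2-cKO libraries in Themis was also their order in the CD8 marker sum, where Cd8a was at 46.4, 37.8 and 25.2 FPKM in Bach2-cKO, against 19.3, 21.8 and 18.7 FPKM in WT; the part of CD8 T cells in the Themis values was not tested.

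Lat, the scaffold itself, was at 300.4, 238 and 264 FPKM in Bach2-cKO, against 303, 322 and 332 FPKM in WT. The groups were separated by a narrow gap, since the first Bach2-cKO library came close to the first WT library, and Lat did not pass the test (log2 fold change -0.26, adjusted p = 0.0986, limma). Without that Bach2-cKO library, replicate 1, Lat was called. Its partner Lcp2, the adaptor SLP-76, averaged 173 ± 20.02 FPKM in Bach2-cKO and 164 ± 20.5 FPKM in WT (SD, n = 3 each), with overlap. Grap2, the adaptor GADS that joins the pair, averaged 40.5 ± 1.89 FPKM in Bach2-cKO and 44.99 ± 4.19 FPKM in WT, and Vav1, an exchange factor for small GTPases, 104.5 ± 4.78 FPKM in Bach2-cKO and 104.6 ± 3.92 FPKM in WT. For Vav1 the 95% confidence interval of the log2 fold change ran from -0.14 to 0.14.

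Rasgrp1, the Ras activator that diacylglycerol recruits, was at 61.2, 61.2 and 65.7 FPKM in Bach2-cKO, against 71.6, 75.4 and 68.6 FPKM in WT. It did not overlap between the groups and did not pass the test (log2 fold change -0.19, adjusted p = 0.0765, limma). Trat1, a transmembrane adaptor bound to the receptor, was at 25.9, 27.5 and 26.5 FPKM in Bach2-cKO, against 35.0, 30.3 and 42.3 FPKM in WT (log2 fold change -0.40, adjusted p = 0.0535, limma), again without overlap. It passed the test without WT replicate 2. Rhoh, an atypical GTPase needed to bring ZAP70 to the receptor, averaged 43.2 ± 7.46 FPKM in Bach2-cKO and 52.4 ± 1.98 FPKM in WT and overlapped through the third Bach2-cKO library.

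Downstream, the NF-kappaB branch and the NFAT branch each held a gene that rose. Malt1, a paracaspase that acts in the activation of NF-kappaB, was at 74.5, 72.3 and 69.6 FPKM in Bach2-cKO, against 39.0, 38.4 and 45.4 FPKM in WT. Its log2 fold change was 0.81 (SE 0.078, adjusted p = 0.000968, limma), with no overlap and a level 76.2% higher. Bcl10, its adaptor, was at 47.9, 47.1 and 49.7 FPKM in Bach2-cKO, against 48.2, 48.4 and 46.7 FPKM in WT, with a 95% confidence interval of the log2 fold change of -0.12 to 0.14.

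Nfatc1, which encodes the NFAT protein whose own gene is induced by NFAT, was at 61.9, 59.5 and 61.1 FPKM in Bach2-cKO, against 44.2, 43.1 and 46.1 FPKM in WT. It rose by a log2 fold change of 0.44 (SE 0.056, adjusted p = 0.00279, limma), with a narrow spread in both groups. Nfatc2, a family member present before stimulation, was at 26.7, 24.6 and 26.4 FPKM in Bach2-cKO, against 24.0, 19.1 and 21.03 FPKM in WT. It did not overlap, and passed the test on recovered reads (limma-voom, adjusted p = 0.0442) but not on FPKM (limma, adjusted p = 0.0946). Nfatc3 averaged 77.7 ± 5.07 FPKM in Bach2-cKO and 77.6 ± 5.31 FPKM in WT (SD, n = 3 each), with full overlap. Malt1, Bcl10 and Nfatc1 are also used by B cells, whose markers were higher in these Bach2-cKO libraries; the part of those cells was not tested, beyond the fit with the B cell score, where Malt1 had a log2 fold change of 0.93 (adjusted p = 0.0625, limma) and Nfatc1 of 0.53 (adjusted p = 0.0997, limma).

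**Figure D3:**
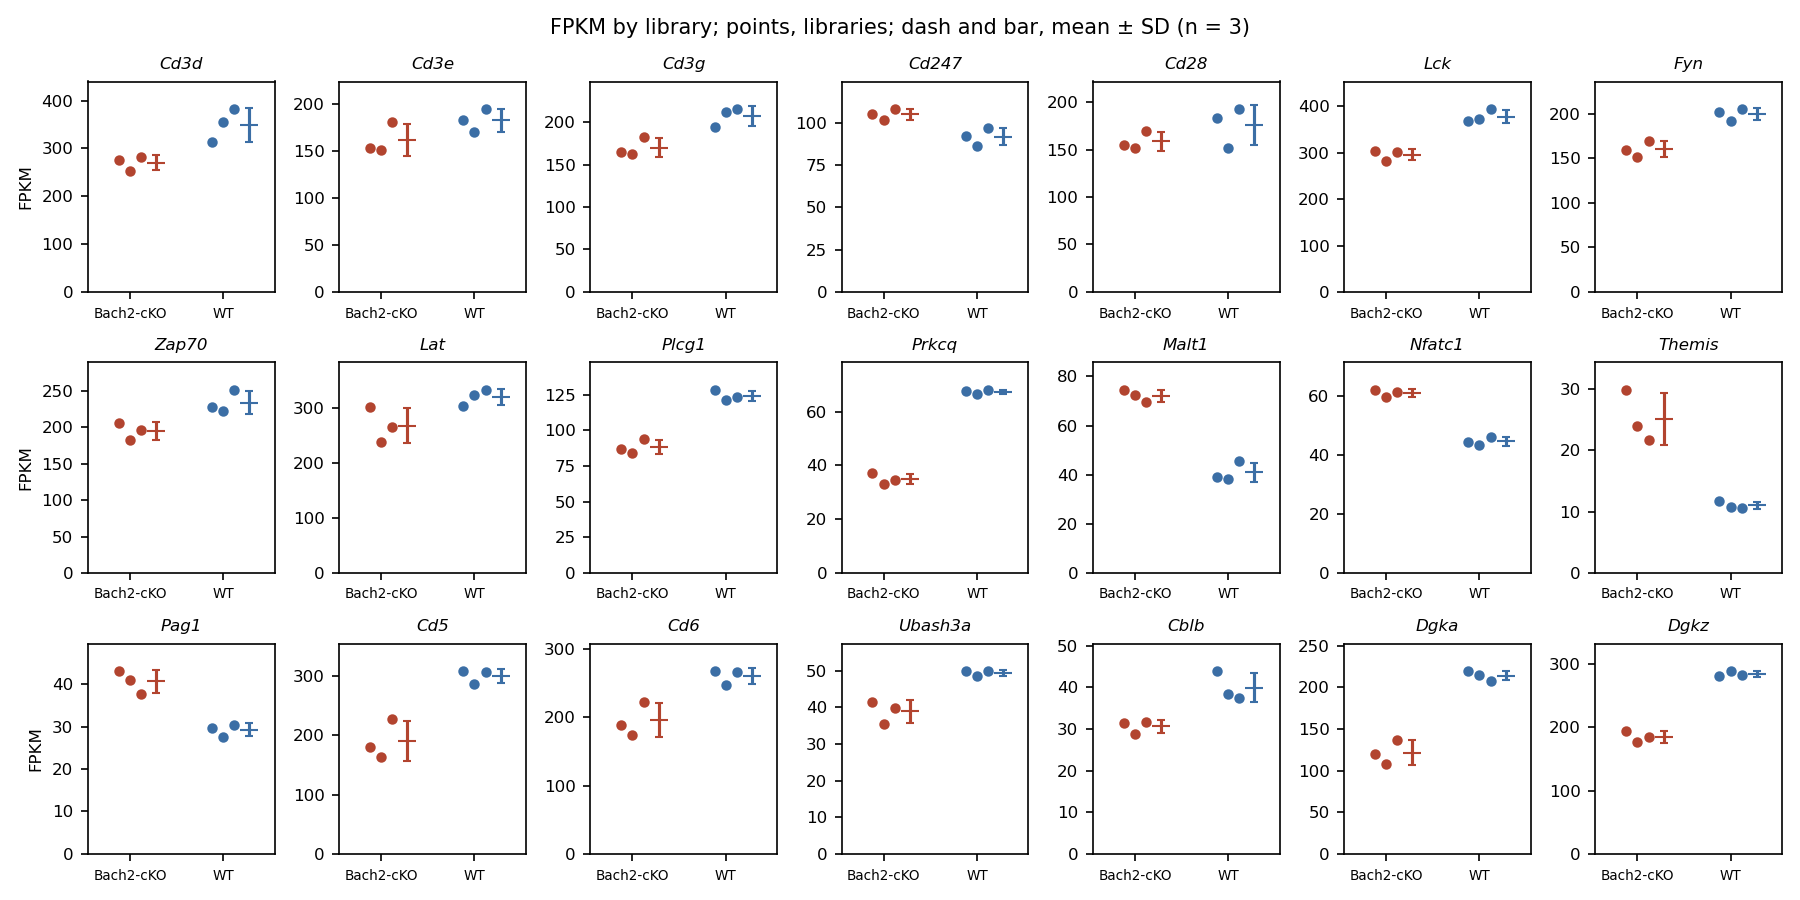
FPKM in each library (points; y axes start at 0) of 21 members, with mean ± SD (dash and bar, n = 3). In the panels of Prkcq, Dgka, Dgkz, Malt1, Nfatc1 and Themis the groups are far apart relative to their spread; in those of Cd3e and Cd28 they overlap.

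On the inhibitory side, the members that fell were both diacylglycerol kinases, the surface receptor CD5, the ubiquitin ligase CBLB and the ubiquitin-binding UBASH3A. The 2 diacylglycerol kinases, which convert diacylglycerol and so end the signal to RASGRP1, fell by more than any other negative regulator but Cd5. Dgka was at 119.9, 108 and 137 FPKM in Bach2-cKO, against 219.7, 215 and 208 FPKM in WT (log2 fold change -0.82, SE 0.088, adjusted p = 0.00146, limma). Dgkz was at 194, 176 and 185 FPKM in Bach2-cKO, against 282, 289 and 283 FPKM in WT (log2 fold change -0.62, SE 0.058, adjusted p = 0.000864, limma). Neither gene overlapped between the groups. Both were called without any one of the libraries and after T cell marker centring, at -0.48 and -0.28.

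Cd5, a surface receptor whose level on T cells follows the strength of receptor signals, was at 180.3, 163 and 227 FPKM in Bach2-cKO, against 309, 287 and 307 FPKM in WT. Its log2 fold change was -0.67 (SE 0.12, adjusted p = 0.00932, limma), without overlap, and it was called in each of the 6 fits that left out a library. Cd6, its neighbour on chromosome 19 and a receptor with both activating and inhibitory roles, was at 189, 174 and 222 FPKM in Bach2-cKO, against 268, 247 and 266 FPKM in WT (log2 fold change -0.42, adjusted p = 0.0235, limma). Both genes were highest, within Bach2-cKO, in replicate 3. The call of Cd6 was lost without Bach2-cKO replicate 1 or 2 or without WT replicate 1 or 3.

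The 2 members that act with the ubiquitin system also fell. Cblb, a ubiquitin ligase that sets the need for CD28 signals, was at 31.4, 28.9 and 31.6 FPKM in Bach2-cKO, against 43.9, 38.4 and 37.5 FPKM in WT (log2 fold change -0.37, adjusted p = 0.021, limma). Ubash3a, which encodes a ubiquitin-binding protein of the STS family, was at 41.4, 35.4 and 39.8 FPKM in Bach2-cKO, against 49.9, 48.4 and 49.9 FPKM in WT (log2 fold change -0.34, adjusted p = 0.0191, limma). Neither overlapped, but each lost its call in 3 of the 6 fits that left out a library. For Cblb these were the fits without Bach2-cKO replicate 1, Bach2-cKO replicate 2 or WT replicate 1, and for Ubash3a those without Bach2-cKO replicate 2, WT replicate 1 or WT replicate 3.

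Pag1 was the only one of the 12 negative regulators to rise in the FPKM as deposited. It encodes a transmembrane adaptor that holds the inhibitory kinase CSK near LCK. It was at 43.1, 41.0 and 37.8 FPKM in Bach2-cKO, against 29.8, 27.5 and 30.4 FPKM in WT (log2 fold change 0.46, SE 0.075, adjusted p = 0.00693, limma). Csk itself was among the most abundant members and did not separate the groups, at 328, 342 and 344 FPKM in Bach2-cKO, against 332, 364 and 345 FPKM in WT. The interval of its log2 fold change was -0.18 to 0.10.

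Of the phosphatases, Ptpn6 (SHP-1), which is also abundant in B cells, averaged 353 ± 22.1 FPKM in Bach2-cKO and 336 ± 23.0 FPKM in WT, and Ptpn22, which acts on LCK and ZAP70, 152 ± 10.1 FPKM in Bach2-cKO and 146 ± 9.05 FPKM in WT (SD, n = 3 each). Both overlapped between the groups. Ptprc (CD45), which can activate or restrain LCK, was the most abundant of the 40 genes in both groups, at 609.6, 586 and 656 FPKM in Bach2-cKO, against 727, 629.7 and 769.8 FPKM in WT (log2 fold change -0.20, adjusted p = 0.193, limma). CD45 is carried by all white blood cells.

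The Src-like adaptors Sla and Sla2, which promote receptor breakdown, lay below WT in every Bach2-cKO library without passing the test (limma, adjusted p = 0.102 and 0.244). Both turned to above 0 after T cell marker centring, but stayed below the all-gene median of 0.29 in that fit. Sla averaged 132 ± 14.5 FPKM in Bach2-cKO and 156 ± 7.12 FPKM in WT, and Sla2 11.8 ± 0.951 FPKM in Bach2-cKO and 13.3 ± 0.239 FPKM in WT. Sit1, an adaptor that binds SHP-2, averaged 20.4 ± 2.09 FPKM in Bach2-cKO and 22.4 ± 2.02 FPKM in WT, with overlap. Sh2d2a, which encodes the LCK-binding adaptor TSAd, averaged 143 ± 12.3 FPKM in Bach2-cKO and 174 ± 11.5 FPKM in WT and did not overlap (log2 fold change -0.28, adjusted p = 0.0557, limma). Without Bach2-cKO replicate 3 the members Cd2, Rhoh, Sla and Sh2d2a passed the test as well.

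Ratios of 2 genes within a library do not depend on how that library was scaled, and several separated the groups. The pairs were chosen after the values were seen, so they are given without a test, and not all pairs computed are given. A ratio can still differ with the mix of cell types in a library, and the part of that mixture was not tested. Malt1 over Bcl10 was 1.56, 1.53 and 1.40 in Bach2-cKO, against 0.809, 0.793 and 0.973 in WT. Prkcq over Lck was 0.122, 0.117 and 0.114 in Bach2-cKO, against 0.184, 0.179 and 0.173 in WT. The partners within these pairs therefore changed unequally.

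Nfatc1 over Nfatc3 was 0.845, 0.775 and 0.734 in Bach2-cKO, against 0.546, 0.603 and 0.574 in WT. Dgka over Rasgrp1, an enzyme that removes diacylglycerol against one that responds to it, was 1.96, 1.76 and 2.09 in Bach2-cKO, against 3.07, 2.85 and 3.03 in WT. Cd5 over Cd3e was 1.17, 1.08 and 1.26 in Bach2-cKO, against 1.69, 1.69 and 1.58 in WT. None of these ratios overlapped, while Cd3d over Cd3e and Dgka over Dgkz did.

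**Figure D4:**
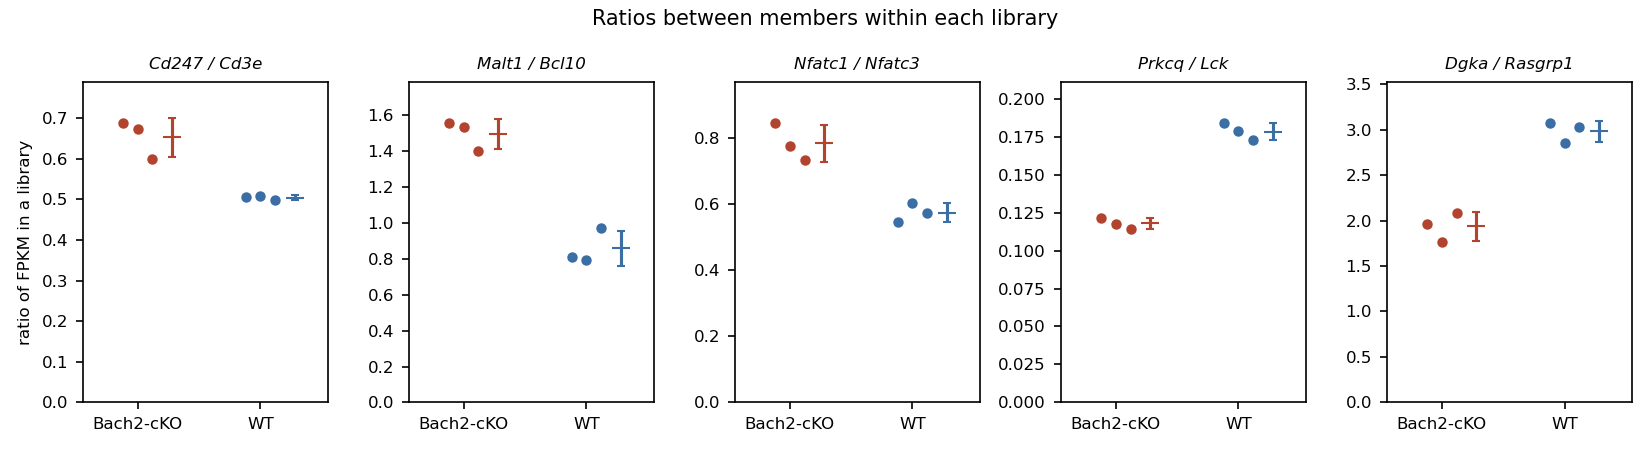
Ratios of the FPKM of 2 members within each library (points, y axes start at 0), with mean ± SD (dash and bar, n = 3). Cd247 over Cd3e, Malt1 over Bcl10 and Nfatc1 over Nfatc3 are higher, and Prkcq over Lck and Dgka over Rasgrp1 lower, in every Bach2-cKO library than in any WT library.

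Among the 12 members that fell, Bach2-cKO replicate 3 was the highest of its group for 8 and replicate 1 for the other 4. Replicate 2, which had the highest B cell marker sum and the lowest T cell marker sum, was the highest for 0. Over all 1144 genes that fell, replicate 3 was the highest for 59.7%, replicate 1 for 24.6% and replicate 2 for 15.7%. The median log2 difference of the 12 members from the WT mean was -0.40, -0.51 and -0.33 in Bach2-cKO replicates 1, 2 and 3. After T cell marker centring, where the median of all genes was 0.29, 4 of the 12 were still called lower, Prkcq, Cd5, Dgka and Dgkz, and the 4 that rose were called higher again. In that fit Cd247, Lcp2, Vav1, Bcl10, Nfatc2, Nfatc3, Csk, Ptpn22 and Ptpn6 also passed the test as higher, beside 43.0% of all tested genes. With the score of B cell markers in the model, all 16 members that had passed the test kept their sign and 0 passed it after adjustment (limma). Prkcq, Dgkz, Dgka and Plcg1 were lower, and Malt1, Themis, Nfatc1, Pag1, Nfatc2, Cd247 and Ptpn22 higher, at an unadjusted p under 0.05. The log2 fold changes of the 16 were a median of 0.891 times the size without the score, with SE a median of 1.89 times as large and adjusted p between 0.0525 and 0.524 (limma).

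**Figure D5:**
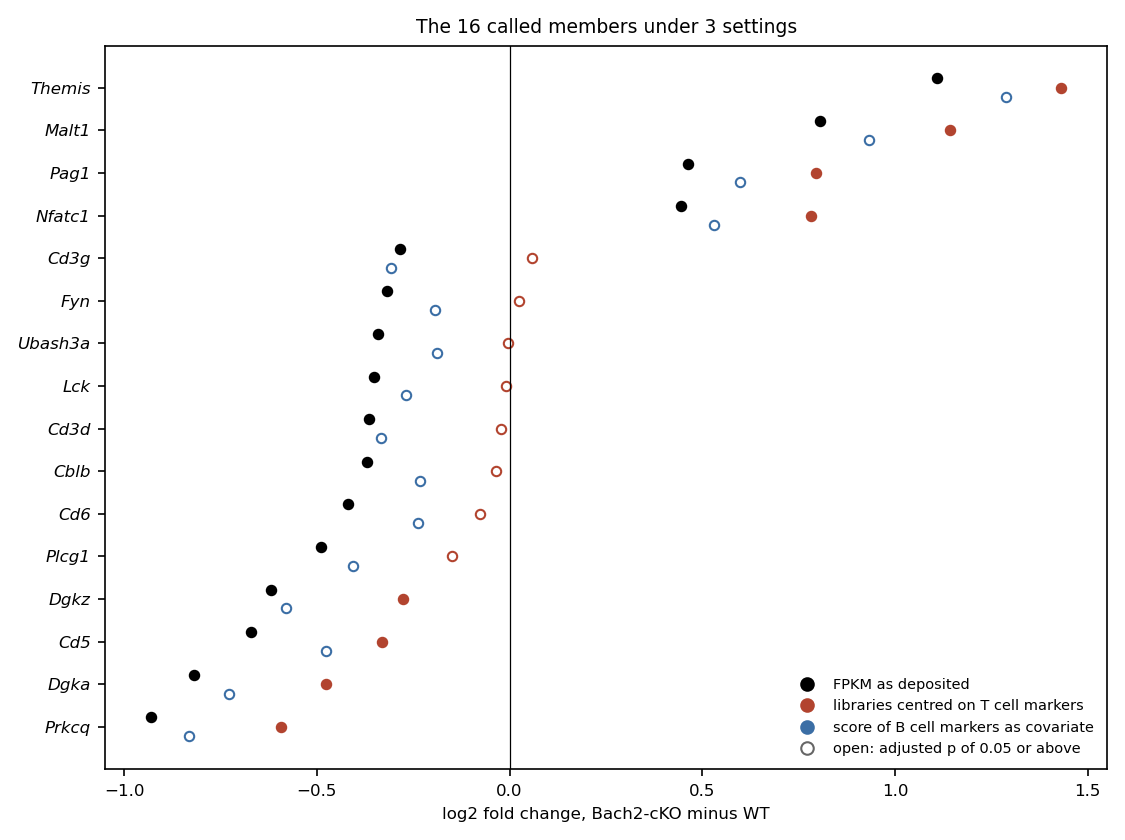
Log2 fold change (Bach2-cKO minus WT, x axis) of the 16 members that passed the test, in the FPKM as deposited, after centring libraries on T cell markers and with a score of B cell markers in the model; filled points have an adjusted p under 0.05. Prkcq, Dgka, Cd5 and Dgkz stay below 0 and filled after the centring, Cd3g and Fyn turn to just above 0, and no point is filled with the score.

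A list of 60 further genes of the receptor pathway, fixed with earlier results of these data known, held genes that moved in either direction. Of its 58 tested genes 10 fell, 10 rose and 38 did not pass the test, where 8.31% of all tested genes fell and 7.02% rose, and the median log2 fold change was -0.013. The 2 untested genes were Lime1 and Rnf128, which did not reach 1 FPKM in 3 libraries. Skap1, Tespa1 and Cd4 are also in the T cell marker list. Without Bach2-cKO replicate 2 the counts were 4 lower and 6 higher, beside 4.27% and 3.57% of all tested genes. Without WT replicate 1 they were 4 lower and 5 higher, beside 4.07% and 3.59%. Without Bach2-cKO replicate 1 they were 5 and 5, beside 5.11% and 4.26%. Without WT replicate 2 the count of lower genes was 5, beside 5.18%, and without WT replicate 3 it was 6, beside 6.52%. Without Bach2-cKO replicate 3 the counts were 14 lower and 8 higher, beside 9.99% and 8.89%.

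Among those that fell, Btla, an inhibitory receptor, averaged 40.6 ± 0.894 FPKM in Bach2-cKO and 56.2 ± 0.623 FPKM in WT (log2 fold change -0.46, adjusted p = 0.00199, limma). Fyb, the adaptor ADAP that links the receptor to integrins, averaged 223 ± 24.0 FPKM in Bach2-cKO and 359 ± 27.9 FPKM in WT (log2 fold change -0.68, adjusted p = 0.00391, limma). Tagap, a GTPase-activating protein of T cells, and Stim2, a calcium sensor of the endoplasmic reticulum, had log2 fold changes of -0.55 and -0.52.

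Among those that rose, Itpr1, the calcium channel opened by the messenger that PLCG1 makes, averaged 88.9 ± 7.27 FPKM in Bach2-cKO and 54.9 ± 4.99 FPKM in WT (log2 fold change 0.69, adjusted p = 0.00285, limma). Icos, a costimulatory receptor of the CD28 family, averaged 261 ± 10.2 FPKM in Bach2-cKO and 164 ± 32.7 FPKM in WT (log2 fold change 0.69, adjusted p = 0.0115, limma). Ptprj, a receptor phosphatase, and Inpp5d, the lipid phosphatase SHIP-1, both of which B cells also express, had log2 fold changes of 0.59 and 0.31.

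Whether reads were counted by strand is not stated in the sources used here, and 18 of the 40 members overlap a gene on the opposite strand. Rab5if, which overlaps Sla2, was higher than that member, at 41.9 FPKM in Bach2-cKO and 36.9 FPKM in WT. Pou2f1, which overlaps Cd247, averaged 26.5 FPKM in Bach2-cKO and 36.4 FPKM in WT, opposite in direction to Cd247, and Pmel, which overlaps Dgka, 3.48 FPKM in Bach2-cKO and 6.19 FPKM in WT. Without strand, reads from such pairs cannot be told apart.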

How the data were processed

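Poly(A) RNA was measured in 6 libraries. The authors deposited FPKM per gene and library, made with HISAT2 2.0.5 and featureCounts 1.5.0-p3 and the build mm9, per the submitters' processing notes; the sources used here do not give the annotation or filters. Gene positions in the deposited table equal GENCODE M21 on GRCm38 for 33 of the 40 members, so that build is named beside positions. Because FPKM divides by each library's total, a large change in abundant genes shifts the others.

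The 13766 genes that reached 1 FPKM in 3 or more libraries entered limma 3.58.1 in R 4.3.3 as log2(FPKM + 1), where the added 1 is the pseudocount. The fit (lmFit, then eBayes allowing an intensity trend) set Bach2-cKO against WT, n = 3 each, two-sided and with no further term, with Benjamini-Hochberg adjustment and a threshold of 0.05. Fold changes understate those of low genes. The script was tested on simulated data. Matplotlib 3.10.9 under Python 3.11.15 drew the figures.

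FPKM are whole multiples of 1 read, and reads were recovered by finding a gene length that gives whole numbers. Within a tolerance of 0.001 reads, such a length was found for 28529 of the 28530 genes with a signal. This length equalled the GENCODE length for 11267 genes. For the others, whole numbers alone do not check the recovered reads, because the length was not fixed beforehand. The read total of each library was estimated before this step, from the FPKM and the GENCODE lengths. The recovered reads gave a limma-voom alternative, which called 1327 genes higher and 1177 lower. Replicates differed by more than sampling noise (chi-square per degree of freedom 9.66 to 21.8), so each library counts once. Other alternatives were median-ratio scaling, centring on T cell markers, a pseudocount of 0.1, no filter, a mean of at least 5 FPKM, a replicate block, a score of B cell markers as a covariate, and leaving out each library. For a single gene, the two-sided exact permutation test of 3 against 3 libraries gives at the smallest 0.1, where the groups do not overlap, and cannot pass the threshold.

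The members and lists were chosen with earlier results of these data known. All 40 members were to be described by role, and up to 4 other pathway genes in each direction by smallest p; Pou2f1, Pmel, Rab5if, Gm48719 and the ratios were chosen after their values were seen.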

Additional observations from a re-analysis of the deposited data

How the results depend on the processing

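The 3 libraries of a group limit precision, and depth does not, since no member had under 491 reads in any library. Over the members and the settings that kept all libraries, 259 results kept direction and side of the threshold, 28 lost the threshold, 10 gained it and 23 changed sign; with a library left out, 204 kept both, 22 lost the threshold, 6 gained it and 8 changed sign.

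Centring on T cell markers turned the sign of 18 members. Of these Cd3g (0.058) and Fyn (0.024) had passed the test before, and Vav1 (0.34) and Csk (0.31) passed it after. The others, which passed in neither, were Cd3e (0.17), Cd2 (0.048), Cd28 (0.20), Zap70 (0.081), Txk (0.088), Lat (0.083), Grap2 (0.19), Rasgrp1 (0.15), Rhoh (0.052), Sit1 (0.20), Sla (0.10), Sla2 (0.16), Ptprc (0.15) and Sh2d2a (0.061). The centring gave 13 members higher and 4 lower, of them 9 and 1 activating, 4 and 3 negative, and 0 of those with both roles lower, beside 43.0% of all genes higher and 3.42% lower; other pathway genes were 36 higher and 1 lower. The centring divides each library by its own value, 0.829 to 0.929 in Bach2-cKO and 1.10 to 1.18 in WT. By construction it raises every gene in Bach2-cKO against WT, and low genes by less because the pseudocount is added afterwards. The median of all genes thus moved from -0.017 to 0.29. With the score of B cell markers as a covariate, every count of members and of other pathway genes was 0 with limma, though 7 members were higher and 4 lower, and likewise 7 and 4 other pathway genes, at an unadjusted p under 0.05. Over all tested genes 982 were higher and 1244 lower at that unadjusted p, and 28 and 31 after adjustment. The score, a mean of log2(FPKM + 1), was 7.585, 7.901 and 7.701 in Bach2-cKO, against 7.029, 7.467 and 7.039 in WT. As it did not overlap between the groups, this fit cannot fully separate the score from the group. The cause of the lost calls was not tested. The score turned the sign of Cd28 (0.16), Ptpn6 (-0.15) and Ptprc (0.066), and median-ratio scaling and limma-voom that of Vav1 (0.023 in each). Without the filter, where more genes enter the adjustment, the counts were 4 higher and 4 lower for other pathway genes. No gene with both roles was lower in that fit, where 1.76% of all genes were higher and 2.39% lower.

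With libraries left out, 6 to 16 members were lower and 4 higher in each fit. Activating parts lower were 3 to 8, negative regulators lower 3 to 6, and genes with both roles lower 0 to 2. Other pathway genes were 5 to 8 higher and 4 to 14 lower. Of all tested genes 3.57% to 8.89% were higher and 4.07% to 9.99% lower in these fits. Members near 0 that were called in none of these fits changed sign, with log2 fold changes over these fits of -0.0059 to 0.17 for Lcp2, -0.0079 to 0.029 for Bcl10, -0.054 to 0.045 for Nfatc3 and -0.039 to 0.028 for Vav1.

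The replicate numbers did not pair the samples: the correlation of deviations between same-numbered libraries was -0.053, 0.0058 and -0.22. A fit with the replicate block called 4 members higher and 10 lower, with 5 other pathway genes higher and 5 lower. Of all tested genes 4.54% were higher and 4.77% lower in that fit.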
